A study of Mus musculus with 15 samples.

Results

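Adipoq, Lep, Retn, Cfd, Plin1, Plin4, Cidec, Lipe, Fabp4 and Pparg, 10 genes of the white fat cell, were followed through 15 RNA sequencing libraries of whole mouse skin. The genes were taken by name from the 24543 genes of the deposited table, and all 10 were found there. Every mouse belonged to the K14CreERTM/LSL-SOX2 line (a 129/SvEv/C57/B16 X CD-1 mix), in which the keratin 14 promoter drives a tamoxifen-activated Cre recombinase in keratinocytes and Cre removes a stop in front of a SOX2 transgene. By its title the study asked how SOX2 in the epidermis acts on the healing of skin wounds. Skin received tamoxifen on its surface (5 mg/ml in 200 µl of ethanol) or ethanol alone, and was taken unwounded at day 0 or wounded at day 4.

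The unwounded groups were tamoxifen skin (n = 3 libraries, replicates 2 to 4) and vehicle skin (n = 4). For the 8 wounded libraries the sources give opposite treatments. Wounded set A (n = 4) is tamoxifen-treated by the sample records and Vehicle_Wounded by the gene tables. Wounded set B (n = 4) carries the reverse pair of names, as vehicle-treated by the records and Tam_Wounded by the tables. The submitters' sample sheet heads the names of the records "Old Group" and those of the gene tables "New Group". Comparisons that need a treatment for wounded skin are therefore given both ways. No mice without the transgene received tamoxifen, and wounded skin was of another day than unwounded skin, so tamoxifen and SOX2, and wounding and day, cannot be told apart. The sources used here do not give the age of the mice. Nor do they say whether each library came from a separate mouse, and p-values then measure the spread between these libraries, which may be technical.

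White adipocytes store triglyceride in a single large droplet coated by perilipins, release it as fatty acids through a cascade of lipases, and secrete hormones such as adiponectin and leptin. In mouse skin they form a layer beneath the dermis, which thickens and thins with the hair cycle and whose precursors lie in the dermis. The nuclear receptor PPARγ and transcription factors of the C/EBP family direct the formation of these cells.

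Fat cell RNA was present in every library. All 10 genes were above 0 throughout, the lowest value being 1.07 RPKM (reads mapped to a gene, divided by its length and by the size of the library) for Lep, and all 10 passed the filter on low values. The keratinocyte genes of whole skin were present as well, with a summed level of 4580 to 14500 RPKM over 8 genes. RNA of other tissues differed between the groups. Summed over 10 hair follicle and hair shaft genes, unwounded tamoxifen skin had 14500 to 20300 RPKM and unwounded vehicle skin 9.22 to 19 RPKM. Set B had 2490 to 5200 RPKM, while set A had 1402 in replicate 2 and 8.83 to 39.3 in the others. Replicate 2 thus stood apart from the rest of set A, and replicate 4 of that set was the shallowest library, with 39277860 alignments where the others had 48927814 to 75102345. In whole skin, fewer fat cells and less RNA per fat cell cannot be told apart.

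The upstream sequence of 4 genes is shown because they hold the letters of a C/EBP-type core in the 250 bases before a start site. The motif searched was TTGCNNAA on both strands, in upstream windows of RefSeq genes on GRCm38.p6. It occurred in 9.56% of all 32851 windows and in 4 of the 13 windows of 9 member genes. Fabp4 had no entry. Capitals mark the matches, which in Lep read alike on both strands. The windows are Lep at chr6:29059971-29060220 (plus strand), Plin1 at chr7:79732777-79733026 (minus strand), 1 of 2 Cidec windows at chr6:113434765-113435014 (minus strand), and the most downstream of 3 Pparg windows at chr6:115421816-115422065 (plus strand).
Lep: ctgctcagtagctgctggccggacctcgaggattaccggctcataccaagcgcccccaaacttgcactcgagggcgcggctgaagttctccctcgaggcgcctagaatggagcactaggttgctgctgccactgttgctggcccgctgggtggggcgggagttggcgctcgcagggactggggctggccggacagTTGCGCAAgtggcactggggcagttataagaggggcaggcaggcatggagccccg
Plin1: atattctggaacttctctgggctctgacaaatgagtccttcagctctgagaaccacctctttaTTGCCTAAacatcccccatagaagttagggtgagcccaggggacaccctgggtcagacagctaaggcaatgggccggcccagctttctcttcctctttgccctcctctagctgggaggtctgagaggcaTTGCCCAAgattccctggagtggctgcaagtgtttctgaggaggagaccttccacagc
Cidec: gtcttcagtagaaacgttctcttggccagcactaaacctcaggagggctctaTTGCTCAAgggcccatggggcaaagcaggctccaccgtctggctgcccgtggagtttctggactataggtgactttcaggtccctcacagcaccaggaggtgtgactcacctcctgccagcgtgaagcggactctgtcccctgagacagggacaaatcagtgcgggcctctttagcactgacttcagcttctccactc
Pparg: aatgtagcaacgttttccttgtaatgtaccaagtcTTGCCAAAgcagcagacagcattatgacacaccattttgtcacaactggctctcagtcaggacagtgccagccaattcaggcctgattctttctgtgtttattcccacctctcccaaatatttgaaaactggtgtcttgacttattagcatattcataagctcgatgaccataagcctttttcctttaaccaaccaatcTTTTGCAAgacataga
Plin1 held a match at bases -187 to -180 and another at -58 to -51, counted from the start site. In Lep the match lay at -55 to -48, close to the start site, and in Cidec at -198 to -191. Pparg had matches at -215 to -208 and at -16 to -9. The windows of Adipoq, Plin4, Lipe, Retn and Cfd did not contain these letters. A second motif, AGGTCA on both strands, the repeat unit of nuclear receptor sites, occurred in 4607 of the 32851 windows and in 2 of the 13, both of Pparg. A match is a run of letters and not a measured binding site.

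In unwounded skin the fat cell genes did not move as a block after tamoxifen. Pparg, Plin4, Adipoq, Lep and Retn were lower than in vehicle skin, Fabp4 was higher, and the other 4 genes did not pass the test (limma, adjusted p under 0.05 over all 13922 genes tested). Of all genes tested, 69.4% were called in this comparison, 34.7% of them higher and 34.7% lower as shares of all tested, so 6 called genes of 10 is close to the background. The median difference of the 10 genes was -0.57 on the log2(RPKM + 0.5) scale, against 0 for all genes. That scale is used for every difference given, with limma's standard error, and it understates the change of low genes. In 3 genes the tamoxifen libraries lay wholly below the vehicle libraries and in 2 wholly above, where 34.2% and 35.4% of all genes did so.

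**Figure D1:**
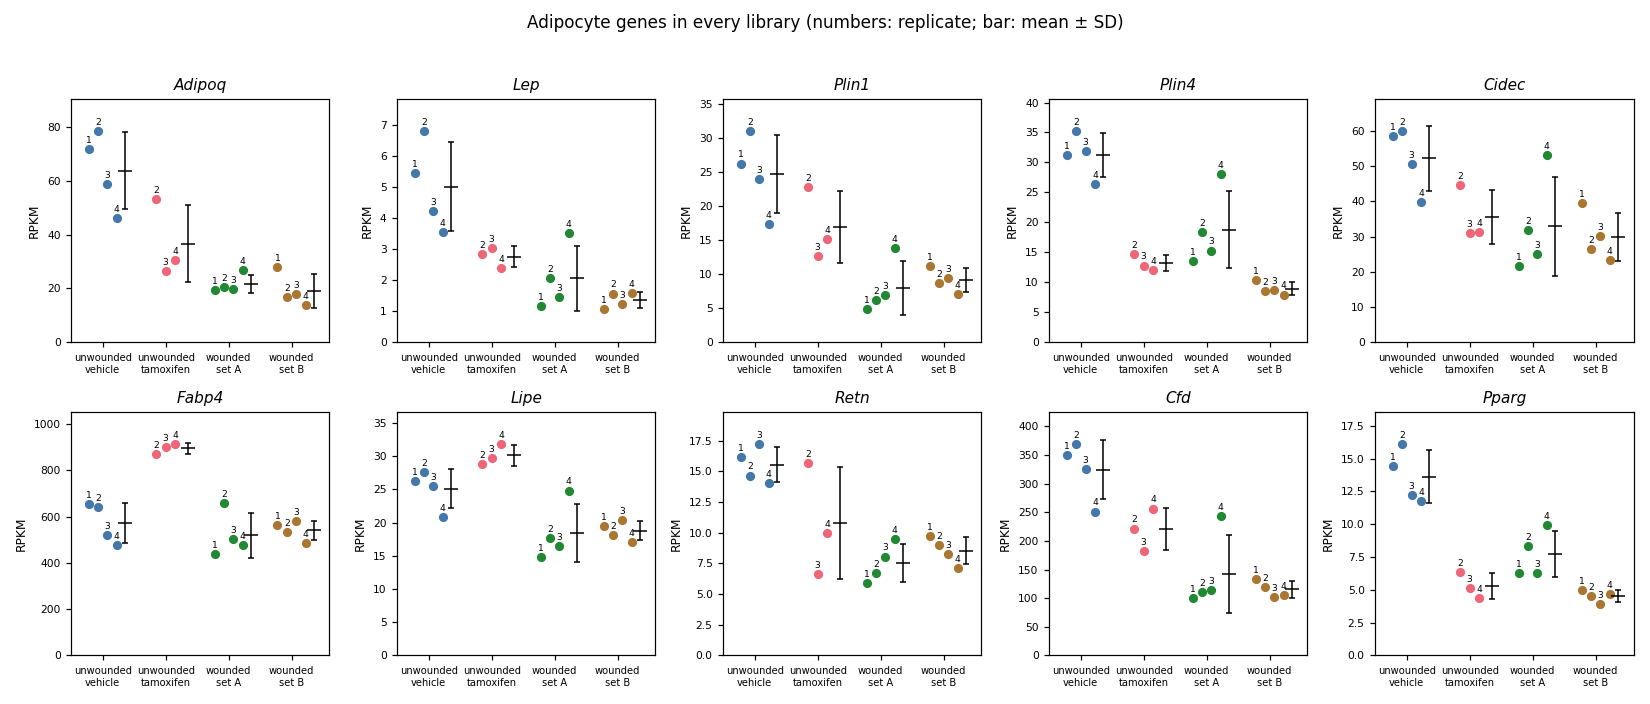
RPKM of the 10 fat cell genes (linear axes from 0) in each library of 4 groups, points numbered by replicate, with bars for the group mean ± SD (n = 3 for unwounded tamoxifen skin, otherwise 4). Pparg and Plin4 are lower in all 3 unwounded tamoxifen libraries than in all 4 vehicle libraries, Fabp4 is higher, and replicate 4 of set A is the highest of its set in 9 of the 10 genes.

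Among the secreted products, adiponectin came first. Adipoq (chr16:23146536-23158028, plus strand, GRCm38), which encodes this insulin-sensitising hormone, had 71.7, 78.6, 58.6 and 46.1 RPKM in unwounded vehicle replicates 1 to 4 and 53.1, 26.3 and 30.6 RPKM in tamoxifen replicates 2 to 4. Tamoxifen replicate 2 lay among the vehicle libraries and the other 2 below them. Adipoq was lower by -0.83 ± 0.26 (limma adjusted p = 0.0122). The call was lost without tamoxifen replicate 3 (adjusted p = 0.0706) or replicate 4 (adjusted p = 0.051). The authors' deposited table gives a ratio of 0.560 for tamoxifen over vehicle.

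Lep (chr6:29060220-29073877, plus strand) encodes leptin, the satiety hormone secreted in proportion to fat stores. It had 5.46, 6.83, 4.23 and 3.55 RPKM in vehicle skin and 2.85, 3.03 and 2.39 RPKM in tamoxifen skin. The groups did not overlap, and the difference was -0.73 ± 0.26 (limma adjusted p = 0.0221). It was not called without tamoxifen replicate 4 (adjusted p = 0.0783), vehicle replicate 1 (0.0511) or vehicle replicate 2 (0.0665).

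Retn (chr8:3655770-3660110, plus strand) encodes resistin, which in mice is made by fat cells. Vehicle skin had 16.1, 14.7, 17.2 and 14.1 RPKM and tamoxifen skin 15.7, 6.65 and 9.98 RPKM. As with Adipoq, tamoxifen replicate 2 lay among the vehicle libraries and the other 2 below. The difference of -0.58 ± 0.22 passed the limma test (adjusted p = 0.0283). It rested on single libraries, with an adjusted p of 0.191 without tamoxifen replicate 3, 0.0689 without tamoxifen replicate 4, 0.0556 without vehicle replicate 1 and 0.0657 without vehicle replicate 3, and of 0.0502 with the replicate block.

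Cfd (chr10:79890853-79892655, plus strand) encodes adipsin, the complement factor D protease, and was the second most abundant of the 10 by RPKM. Its values were 351, 370, 326 and 251 RPKM in vehicle skin and 222, 183 and 256 RPKM in tamoxifen skin. Tamoxifen replicate 4 exceeded only vehicle replicate 4. The difference of -0.55 ± 0.25 did not pass (limma adjusted p = 0.0638), but passed without vehicle replicate 4 (0.0386) and without set A replicate 4 (0.00383), which enters the shared estimate of the spread. Other settings also called it: only the unwounded groups in the fit (0.0147), library weights (0.00354) and median-of-ratios scaling (0.0416).

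The proteins of the lipid droplet differed in degree. Plin4 (chr17:56100591-56109803, minus strand), a perilipin of the droplet coat, had 31.3, 35.3, 31.9 and 26.4 RPKM in vehicle skin and 14.8, 12.8 and 12.1 RPKM in tamoxifen skin. Every tamoxifen library was below every vehicle library by a wide margin. The difference was -1.21 ± 0.19, a 2.31-fold lower level (limma adjusted p = 7.08e-05), and it stayed called whichever library was left out, between -1.29 and -1.15.

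Plin1 (chr7:79720218-79732903, minus strand) encodes perilipin 1, which holds lipases off the droplet until they are activated. It had 26.2, 31.1, 24.0 and 17.3 RPKM in vehicle skin and 22.8, 12.6 and 15.2 RPKM in tamoxifen skin, and the groups overlapped. The difference of -0.55 ± 0.30 did not pass (limma adjusted p = 0.117). It passed without tamoxifen replicate 2 (0.0477) or set A replicate 4 (0.0416), and with library weights (0.00773).

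Cidec (chr6:113424634-113435760, minus strand) encodes a protein that fuses small droplets into a large one. Vehicle skin had 58.4, 60.0, 50.4 and 39.6 RPKM and tamoxifen skin 44.5, 31.0 and 31.3 RPKM. Tamoxifen replicate 2 again lay above the lowest vehicle library. The difference of -0.55 ± 0.27 did not pass (limma adjusted p = 0.083), though it did without tamoxifen replicate 2 (0.0487), vehicle replicate 4 (0.0496) or set A replicate 4 (0.0262). It also passed with only the unwounded groups in the fit (0.0248) and with library weights (0.00845).

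Lipe and Fabp4 stood on the other side of 0. Lipe (chr7:25379527-25398710, minus strand) encodes hormone-sensitive lipase. It had 26.3, 27.7, 25.5 and 20.9 RPKM in vehicle skin and 28.9, 29.7 and 31.9 RPKM in tamoxifen skin. All 3 tamoxifen libraries were above all 4 vehicle libraries, yet the difference of 0.27 ± 0.14 did not pass (limma adjusted p = 0.107). It passed without set A replicate 4 (0.0222), with only the unwounded groups in the fit (0.0396) and with library weights (0.0202). An antisense gene, 4732471J01Rik, covers 19184 bases of Lipe, and since the use of strand in counting is not given, reads of the pair cannot be told apart.

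Fabp4 (chr3:10204088-10208576, minus strand) encodes the fatty acid carrier of fat cell cytoplasm and was the most abundant of the 10 by RPKM in every library. It had 654, 640, 521 and 478 RPKM in vehicle skin and 870, 901 and 914 RPKM in tamoxifen skin. No library overlapped between the groups. Fabp4 was 1.57-fold higher (0.65 ± 0.13, limma adjusted p = 0.000685), and 0.57 to 0.72 higher with any 1 library left out. Fabp4 is also expressed in macrophages and capillary endothelium, whose marker genes were lower in tamoxifen skin, 8 of 8 with a median of -3.13 and 7 of 7 with a median of -1.05. Their part in the result was not tested.

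Pparg (chr6:115360951-115490399, plus strand), the nuclear receptor that fat cell formation requires, showed the most negative difference of the 10. It had 14.4, 16.1, 12.2 and 11.8 RPKM in vehicle skin and 6.38, 5.12 and 4.40 RPKM in tamoxifen skin. The lowest vehicle library was well above the highest tamoxifen library. Pparg was 2.44-fold lower (-1.29 ± 0.16, limma adjusted p = 9.54e-06), with a range of -1.42 to -1.17 as each library was left out. Sebaceous glands and macrophages express Pparg too. Of 10 sebaceous gland genes 7 fell and none rose in the same comparison, with sums of 692 to 721 RPKM in tamoxifen skin and 1030 to 1530 RPKM in vehicle skin, and their part was not tested. An annotated antisense gene, Gm44079, overlaps Pparg over 13176 bases, with the same limit on strand as for Lipe.

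**Figure D2:**
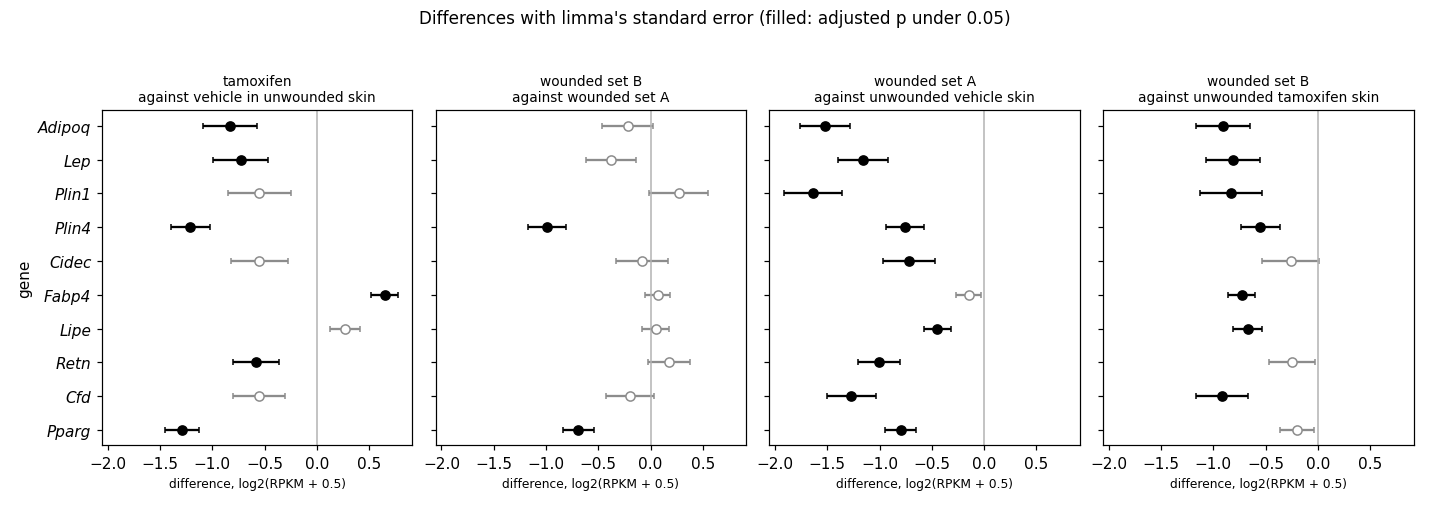
Difference on the log2(RPKM + 0.5) scale for each of the 10 genes in 4 comparisons, with limma's standard error; filled points passed an adjusted p of 0.05. In unwounded skin Fabp4 lies to the right of 0 and Pparg furthest to the left. Set A against vehicle skin and set B against tamoxifen skin, the gene tables' pairing, lie to the left of 0 for all 10 genes. With the sample records' pairing (not drawn), 8 of 10 differences were below 0 for set A against tamoxifen skin. For set B against vehicle skin 10 of 10 were.

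Between the wounded sets, whose treatments are disputed, 2 of the 10 genes differed. Plin4 and Pparg were lower in set B and the other 8 genes did not pass, where 15.6% of all genes tested were lower and 31.1% were called in either direction. Plin4 had 13.6, 18.3, 15.3 and 28.0 RPKM in set A and 10.4, 8.51, 8.76 and 7.97 RPKM in set B. All set B libraries were below all set A libraries, with a difference of -0.99 ± 0.18 (limma adjusted p = 0.000977).

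Pparg had 6.31, 8.31, 6.29 and 9.91 RPKM in set A and 4.96, 4.52, 3.91 and 4.66 RPKM in set B. Here too the sets did not overlap, as in 14.6% of all genes lower in set B, and the difference was -0.69 ± 0.15 (limma adjusted p = 0.00344). Without set A replicate 4, the highest library for both genes, both calls held, and over all single omissions Pparg ranged from -0.77 to -0.57 and Plin4 from -1.12 to -0.78. With the replicate block in a fit of only the wounded sets, the limma adjusted p was 0.029 for Plin4 and 0.014 for Pparg. By the gene tables' names set B is the tamoxifen set, and by the sample records it is the vehicle set. In set B 7 of 10 sebaceous gland genes were also lower and 1 was higher, and their sums overlapped (658 to 1610 RPKM in set A, 800 to 1280 in set B). Lower too were 5 of 8 macrophage, 6 of 7 endothelial and 3 of 8 fibroblast genes, with none higher, while 10 of 10 hair follicle genes were higher. The part of these tissues was not tested.

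For the other 8 genes the sets overlapped, and their differences ran from -0.38 ± 0.24 for Lep to 0.27 ± 0.28 for Plin1. Replicate 4 of set A widened many of these ranges. For Cfd it had 243 RPKM where the other 3 libraries had 99.6, 111 and 115, and set B had 134, 120, 102 and 106 RPKM. For Cidec it had 53.0 RPKM beside 21.6, 31.7 and 25.1, and set B had 39.4, 26.4, 30.2 and 23.4 RPKM.

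Wounded skin had less fat cell RNA than unwounded vehicle skin in both sets. In set A 9 of the 10 genes were lower and Fabp4 did not pass, where 19.4% of all genes were lower and 39.8% were called. The median of the 10 was -0.90, against 0.01 for all genes. In set B against vehicle skin the count was also 9 of 10, with Fabp4 again outside it, against 28.6% of all genes lower and 59.2% called, and the median was -1.43. All libraries of the wounded set lay below all vehicle libraries for 6 genes in set A and 9 in set B, as they did for 17.1% and 29.2% of all genes. Both comparisons share the vehicle libraries. In the same comparisons 6 of 7 skeletal muscle genes were lower in either set, with medians of -1.99 in set A and -2.42 in set B, and 6 and 8 of 10 sebaceous gland genes were lower. Their part in the result was not tested.

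Adipoq had 19.3, 20.6, 19.8 and 26.8 RPKM in set A and 27.9, 16.7, 17.9 and 13.7 RPKM in set B. All 8 wounded libraries lay below the lowest vehicle library, 46.1 RPKM. The differences from vehicle skin were -1.52 ± 0.24 for set A, a 2.87-fold lower level (limma adjusted p = 0.000294), and -1.74 ± 0.24 for set B (adjusted p = 4e-05).

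Plin1 had 4.84, 6.24, 6.99 and 13.8 RPKM in set A and 11.3, 8.69, 9.46 and 7.10 RPKM in set B. These too were all below vehicle skin. The difference for set A, -1.64 ± 0.28 (limma adjusted p = 0.000425), was the most negative of the 10 genes in that comparison.

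Lep had 1.18, 2.08, 1.45 and 3.53 RPKM in set A and 1.07, 1.57, 1.23 and 1.60 RPKM in set B, all below vehicle skin, by -1.16 ± 0.24 (limma adjusted p = 0.00188) and -1.54 ± 0.24 (adjusted p = 0.000102). Retn had 5.93, 6.72, 8.05 and 9.48 RPKM in set A and 9.74, 8.98, 8.27 and 7.13 RPKM in set B, again all below vehicle skin. Its differences were -1.01 ± 0.20 (limma adjusted p = 0.00144) and -0.83 ± 0.20 (adjusted p = 0.00292). Cfd differed by -1.27 ± 0.23 in set A (limma adjusted p = 0.000789) and by -1.48 ± 0.23 in set B (adjusted p = 0.000111).

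Cidec and Lipe showed smaller differences. Lipe had 14.8, 17.7, 16.5 and 24.8 RPKM in set A, the last of which lay within the vehicle range, and 19.5, 18.1, 20.3 and 17.1 RPKM in set B. It was lower by -0.45 ± 0.13 (limma adjusted p = 0.0141) and -0.41 ± 0.13 (adjusted p = 0.0162). The first of these was not called with only those 2 groups in the fit (0.0557). Cidec was lower by -0.72 ± 0.25 in set A (limma adjusted p = 0.0318) and -0.80 ± 0.25 in set B (adjusted p = 0.0126).

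The Cidec call in set A was lost with the replicate block (adjusted p = 0.0543). It was also lost without any 1 of vehicle replicates 1 (0.0798), 2 (0.0799) or 3 (0.0577) or set A replicates 1 (0.0983), 2 (0.053) or 3 (0.0868). Fabp4 had 438, 657, 502 and 479 RPKM in set A and 564, 534, 581 and 485 RPKM in set B, values within or near the vehicle range. Its differences were -0.15 ± 0.12 (limma adjusted p = 0.371) and -0.07 ± 0.12 (adjusted p = 0.626).

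Against unwounded tamoxifen skin fewer genes were lower. In set B, which the gene tables pair with that group, 7 of 10 were lower with a median of -0.70, where 28.9% of all genes were lower and 54.8% were called, and the median of all genes was -0.05. Fabp4 (-0.73 ± 0.13, limma adjusted p = 0.000487), Lipe, Cfd, Adipoq, Plin1, Lep and Plin4 made up the 7. Cidec, Retn and Pparg did not pass, with differences of -0.26, -0.25 and -0.20. Without tamoxifen replicate 2 the count was 4 of 10. For 6 genes every set B library lay below every tamoxifen library, as for 31.3% of all genes.

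The calls of 4 genes in that comparison turned on single libraries. Plin1 (-0.83 ± 0.30, limma adjusted p = 0.0305) lost its call without tamoxifen replicates 2 (0.143) or 4 (0.0555), without set B replicates 2 (0.0581) or 4 (0.078), and with the replicate block (0.0625). Plin4 (-0.55 ± 0.19, limma adjusted p = 0.0257) lost it without tamoxifen replicates 2 (0.0927) or 3 (0.0507), set B replicates 2 (0.0531) or 4 (0.0616), and with the block (0.0569). Adipoq lost its call without tamoxifen replicate 2 (limma adjusted p = 0.0597) and Lep without tamoxifen replicate 3 (0.0572), while Retn gained one without tamoxifen replicate 3 (0.0332).

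In set A, which the sample records pair with tamoxifen skin, 5 genes were lower and Pparg was higher, where 34.1% and 31.3% of all genes were lower and higher and 65.4% were called. Pparg was higher by 0.49 ± 0.16 (limma adjusted p = 0.0159), although the libraries overlapped and the call was lost without tamoxifen replicate 4 (0.0843). The lower genes were Fabp4 (-0.80 ± 0.13), Lipe (-0.72 ± 0.14), Plin1 (-1.10 ± 0.30), Cfd (-0.72 ± 0.25) and Adipoq (-0.69 ± 0.26). Fabp4 and Lipe alone had all set A libraries below all tamoxifen libraries, 2 of 10 where 30.5% of all genes did. Fabp4, Lipe and Plin1 stayed called with any 1 library left out. Adipoq and Cfd did not, with limma adjusted p up to 0.191 (without tamoxifen replicate 2) and 0.0895 (without tamoxifen replicate 4). Lep and Retn gained calls without set A replicate 4 (0.0123 and 0.0495), Retn also without tamoxifen replicate 3 (0.0059), and Plin4 without set A replicates 1 (0.0142) or 3 (0.0381).

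Over all 15 libraries, with the 2 unwounded groups and the 2 wounded sets weighted equally, all 10 genes were lower in wounded skin. This comparison does not depend on the disputed names. Of all genes tested 29.5% were lower and 56.4% were called. The 10 differences ran from -1.24 ± 0.20 for Plin1 to -0.44 ± 0.09 for Fabp4, with a median of -0.64 against -0.02 for all genes. For each of the 10 genes the wounded and unwounded libraries overlapped. The comparison averages over both unwounded groups. Against vehicle skin alone Fabp4 did not pass in either set. Against tamoxifen skin Pparg was higher in set A (0.49 ± 0.16, limma adjusted p = 0.0159). Cidec (-0.49 ± 0.18, limma adjusted p = 0.0335) was the only one of the 10 whose call was lost with the replicate block (0.057) or by leaving out a library, with adjusted p up to 0.0916 (without tamoxifen replicate 2). In the same comparison 6 of 7 skeletal muscle genes and 5 of 10 sebaceous gland genes were lower, and 8 of 8 macrophage genes were higher. Against vehicle skin alone 1 of 8 macrophage genes was higher in set A, with a median of -0.03. In set B 5 of 8 were lower than in vehicle skin, with a median of -0.76. The part of these tissues in the result was not tested.

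The difference between wounded and unwounded skin was itself compared between treatments. With the gene tables' names, the difference was more negative in tamoxifen skin for Fabp4 (-0.58 ± 0.18, limma adjusted p = 0.0225) and less negative for Pparg (0.60 ± 0.22, adjusted p = 0.0441). The other 8 genes did not pass, and 40% of all genes were called, 20.2% with a negative and 19.7% with a positive term. With the names of the sample records 4 genes had a positive term, Plin4 (2.20 ± 0.26, limma adjusted p = 5.31e-06), Pparg (1.98 ± 0.22, adjusted p = 3.14e-06), Lep (1.11 ± 0.35, adjusted p = 0.0126) and Adipoq (1.05 ± 0.36, adjusted p = 0.0186). Fabp4 had a negative one (-0.73 ± 0.18, limma adjusted p = 0.00305), and 68.5% of all genes were called, 33.9% positive and 34.6% negative. Plin4 did not pass with the gene tables' names (0.22 ± 0.26, limma adjusted p = 0.52). Both terms contain the same difference between the unwounded groups, so they are not independent of each other. Adipoq's term by the records was not called without tamoxifen replicate 3 (0.0596), and Lep's was 0.60 and not called with library weights (0.0613). Pparg's by the gene tables was not called without any 1 of 9 libraries, tamoxifen replicates 3 and 4, vehicle 1 and 2, set A 1 and 3 and set B 1, 2 and 4, with limma adjusted p from 0.0672 to 0.121.

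Because the 10 genes did not move as one, their proportions changed. Relative to Adipoq within the same library, Fabp4 stood at 8.14 to 10.4 in vehicle skin and at 16.4 to 34.2 in tamoxifen skin. In set A the ratio was 17.8 to 31.9 and in set B 20.2 to 35.5. All 11 libraries of the other groups were above the 4 vehicle libraries. Lipe relative to Adipoq was 0.352 to 0.454 in vehicle skin and 0.544 to 1.13, 0.764 to 0.926 and 0.699 to 1.25 in the other groups, again without overlap with vehicle skin.

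Pparg and Plin4 followed another order. Pparg relative to Adipoq was 0.201 to 0.256 in vehicle skin, 0.120 to 0.195 in tamoxifen skin, 0.318 to 0.404 in set A and 0.178 to 0.341 in set B. Plin4 relative to Adipoq was 0.436 to 0.573 in vehicle skin, 0.279 to 0.486 in tamoxifen skin, 0.701 to 1.05 in set A and 0.374 to 0.582 in set B. Set A was highest for Plin4 and for Pparg, with some overlap with set B for Pparg. These ratios are descriptions without a test, and Adipoq itself differed between the groups.

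**Figure D3:**
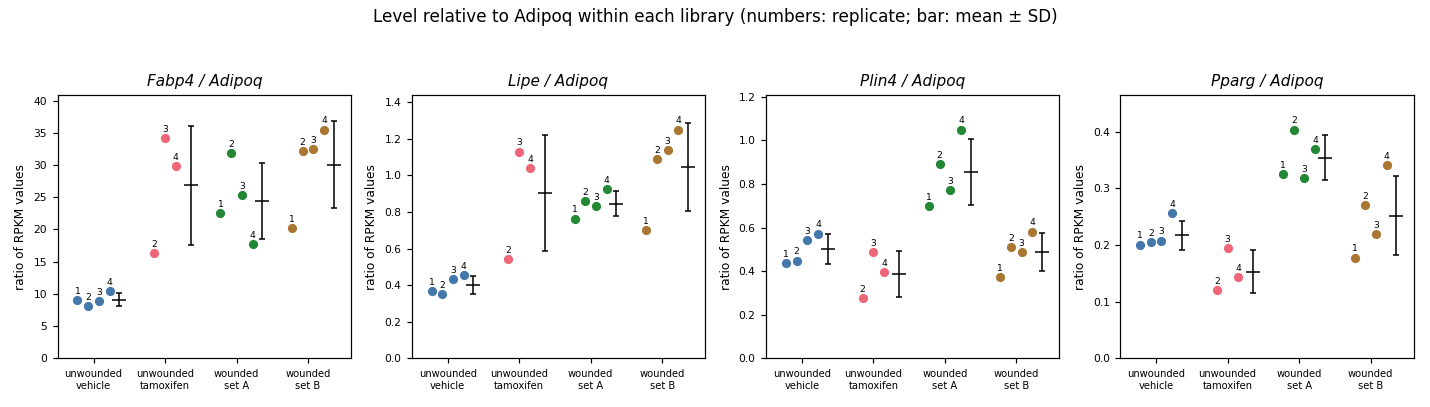
Ratio of the RPKM of Fabp4, Lipe, Plin4 and Pparg to that of Adipoq in each library (linear axes from 0), points numbered by replicate, with bars for the group mean ± SD. Fabp4 lies at 8.14 to 10.4 in vehicle skin and at 16.4 or above in every other library, and Plin4 is highest in set A.

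Within groups the genes tended to be high or low in the same libraries. Vehicle replicate 4 was the lowest of its group for 10 of the 10 genes. Set A replicate 4 was the highest of its set for 9 of them, all but Fabp4, with a median deviation of 0.53 from the set's mean, and set A replicate 1 was the lowest for 9. Tamoxifen replicate 2 was the highest of its group for 6 genes and set B replicate 1 for 7. The summed skeletal muscle genes were highest in these same 2 libraries within their groups, at 3963 and 2797 RPKM, but lowest of set A in its replicate 4, at 1184 RPKM. In that replicate the summed sebaceous gland genes, 1609 RPKM, and keratinocyte genes, 14520 RPKM, were the highest of set A, where the other 3 libraries had 658 to 921 and 7554 to 9439 RPKM. Their part in the deviations was not tested.

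Over the 15 libraries the deviations from the group means gave 45 pairs of the 10 genes, with Pearson's r from 0.01 for Fabp4 with Retn to 0.96 for Plin4 with Cidec and a median of 0.68. Without set A replicate 4 the range was -0.09 to 0.95 and the median 0.61. These correlations describe libraries that share depth and tissue makeup between genes. Library counts and pair correlations for all genes tested are not given here, so neither can be read as particular to the 10.

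**Figure D4:**
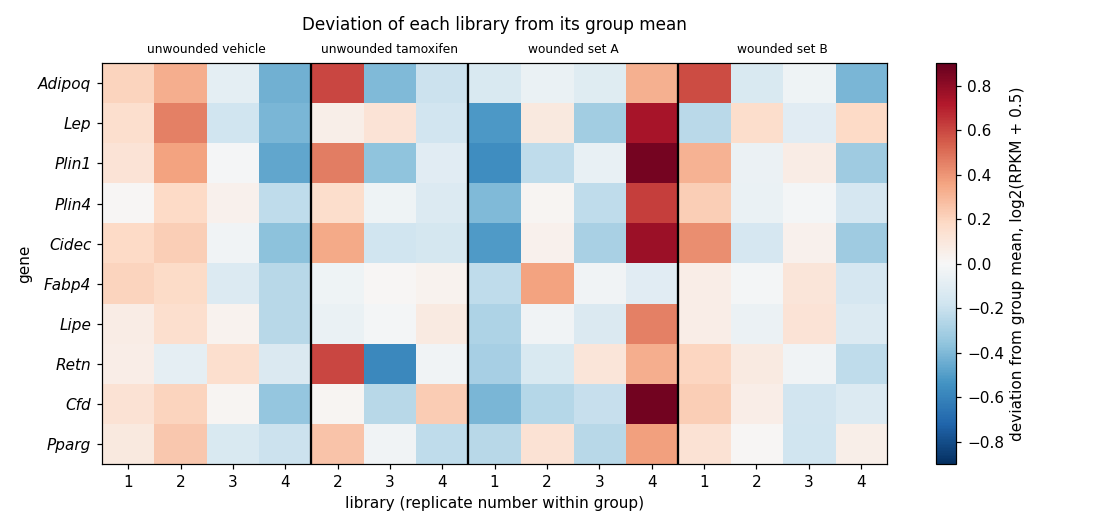
Deviation of each library from its group mean, on the log2(RPKM + 0.5) scale, for the 10 genes (rows) and 15 libraries (columns, by group and replicate), red above and blue below the mean. Set A replicate 4 is above its mean for 9 genes and vehicle replicate 4 is below its mean for 10.

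The genes nearest to Adipoq by this measure, among those tested and outside the 10, were Pnpla2 (r = 0.953, n = 15 libraries), Elovl5 (0.936), Kcns3 (0.932), Nudt5 (0.923), Ces1d (0.923), Pck1 (0.911), Cdo1 (0.905), Sdpr (0.902), Gpd1 (0.895) and Pfkfb1 (0.893). Kcns3 lay near the filter on low values, with 0.523 to 0.822 RPKM in tamoxifen skin and no more than 1.17 RPKM in any group. Pnpla2 encodes the lipase that acts first on stored triglyceride, Pck1 an enzyme of glycerol synthesis in fat, and Gpd1 the enzyme that makes glycerol phosphate for triglyceride. Without the 2 libraries farthest from the median, tamoxifen replicate 2 and set B replicate 1, r for Pnpla2 was 0.952 and for Gpd1 0.851. Of the 10 genes followed here, Plin1 (0.827) and Cidec (0.826) were nearest to Adipoq and Lep (0.317) and Fabp4 (0.34) farthest. Among all other genes tested Plin1 ranked 77 and Cidec 79 by nearness to Adipoq, Lep 4148 and Fabp4 3859.

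Most of these near genes were lower in unwounded skin after tamoxifen, where 34.7% of all genes tested were lower and 34.7% higher. Pnpla2, Elovl5, Ces1d, Pck1, Cdo1, Sdpr and Gpd1 were lower, Nudt5 was higher, and Kcns3 and Pfkfb1 did not pass. The differences were -1.60 ± 0.28 for Ces1d (limma adjusted p = 0.000157), -1.19 ± 0.31 for Gpd1 (adjusted p = 0.00385) and 0.45 ± 0.09 for Nudt5 (adjusted p = 0.000564). Pnpla2 had 53.4 to 74.2 RPKM in vehicle skin and 38.0 to 50.8 RPKM in tamoxifen skin, lower by -0.55 ± 0.14 (limma adjusted p = 0.00303). In the wounded sets it had 57.4 to 75.2 RPKM in set A and 34.1 to 47.7 RPKM in set B.

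Lists of related genes place the 10 in their pathways. In unwounded skin after tamoxifen, 9 of 11 tested adipogenic transcription factors were lower and 1, Cebpb, was higher (0.66 ± 0.18, limma adjusted p = 0.00521). Of all genes tested, 34.7% were lower, 34.7% higher and 69.4% called in all, here and for the lists that follow. Stat5a, a factor that acts in fat cell formation, had 11.7 ± 0.318 RPKM (SD, n = 4) in vehicle skin and 4.39 ± 0.412 RPKM (SD, n = 3) in tamoxifen skin. It was lower by -1.32 ± 0.09 (limma adjusted p = 7.89e-08). Nr1h3, the liver X receptor of lipid sensing, and Cebpd, an early C/EBP factor, were lower by -0.74 ± 0.13 (limma adjusted p = 0.00019) and -0.99 ± 0.18 (adjusted p = 0.000297). Cebpa, the C/EBP factor of mature fat cells, did not pass (-0.08 ± 0.19, limma adjusted p = 0.733).

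Of 9 tested lipid droplet proteins, 6 were lower in tamoxifen skin and 1 higher, Hilpda, an inhibitor of lipolysis (0.42 ± 0.13, limma adjusted p = 0.0108). Plin2, the perilipin found in most cell types, was lower by -0.90 ± 0.11 (limma adjusted p = 5.75e-06), Plin3 by -0.48 ± 0.05 (adjusted p = 3.96e-06) and Cidea by -1.42 ± 0.24 (adjusted p = 0.000122). Cidea and Plin2 are also made in sebaceous glands, so the list is not particular to fat cells.

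Lipolysis genes were lower in 7 of 10 and higher in none. Among them were Pde3b, the phosphodiesterase through which insulin restrains lipolysis (-1.23 ± 0.15, limma adjusted p = 8.82e-06), and Hcar2, the niacin receptor (-0.76 ± 0.16, adjusted p = 0.000663). Pnpla2, described above, belongs to this list as well.

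Fatty acid uptake and triglyceride synthesis had 9 of 13 genes lower and none higher. Lpin1, a phosphatidate phosphatase, was lower by -1.42 ± 0.15 (limma adjusted p = 1.77e-06), Gpihbp1, the endothelial anchor of lipoprotein lipase, by -0.58 ± 0.09 (adjusted p = 8.07e-05), and the fatty acid transporter Cd36 by -0.77 ± 0.13 (adjusted p = 0.000113). Fatty acid synthesis had 7 of 9 lower and 1 higher. The elongase Elovl6 (-2.04 ± 0.27, limma adjusted p = 1.59e-05) and the acetyl-CoA carboxylase Acacb (-1.68 ± 0.22, adjusted p = 1.46e-05) were lower, and the desaturase Scd2 was higher (0.75 ± 0.14, adjusted p = 0.000229).

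Of 10 other adipokines, 8 were lower and 1, Angptl4, an inhibitor of lipoprotein lipase, was higher (0.45 ± 0.15, limma adjusted p = 0.0164). Agt, which encodes angiotensinogen, had 26.7 ± 4.05 RPKM (SD, n = 4) in vehicle skin and 3.11 ± 1.16 RPKM (SD, n = 3) in tamoxifen skin, without overlap. It was lower by -2.95 ± 0.21 (limma adjusted p = 7.08e-08). Between the wounded sets Agt was lower in set B by -2.50 ± 0.19 (limma adjusted p = 3.01e-06). Nampt, which makes a precursor of NAD, and Rarres2, the precursor of chemerin, were each lower by -1.32 in tamoxifen skin (SE 0.13 and 0.15, limma adjusted p = 1.07e-06 and 3.4e-06).

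The smaller lists held fewer calls. Of 5 insulin signalling genes 2 were lower, the insulin receptor Insr (-0.50 ± 0.08, limma adjusted p = 6.68e-05) and the insulin-responsive glucose transporter Slc2a4 (-0.95 ± 0.26, adjusted p = 0.00534), while Akt2 did not pass (-0.11 ± 0.05, adjusted p = 0.0822). Of 4 adipokine receptors only Cdh13, which binds adiponectin, was called (-0.64 ± 0.10, limma adjusted p = 6.48e-05), and the adiponectin receptors Adipor1 (0.06 ± 0.05) and Adipor2 (0.01 ± 0.07) did not pass.

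Of 9 genes of precursors or of restraint on fat formation, 4 were lower and 3 higher in tamoxifen skin. The precursor genes Pdgfra (-2.02 ± 0.16, limma adjusted p = 1.46e-07), Pdgfrb (-1.29 ± 0.12, adjusted p = 7.76e-07) and Ly6a (-1.42 ± 0.18, adjusted p = 9.36e-06) were among the lower ones. Pdgfra also marks fibroblasts in general, of which 7 of 8 marker genes were lower. Of 4 tested brown and beige fat genes 3 were lower, Cidea, Cox7a1 (-1.06 ± 0.31, limma adjusted p = 0.00781) and Cox8b (-1.21 ± 0.45, adjusted p = 0.0263). Cox7a1 and Cox8b are muscle genes as well, and 5 of 7 skeletal muscle genes were lower. Ucp1, Dio2 and Prdm16 were below the filter.

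**Figure D5:**
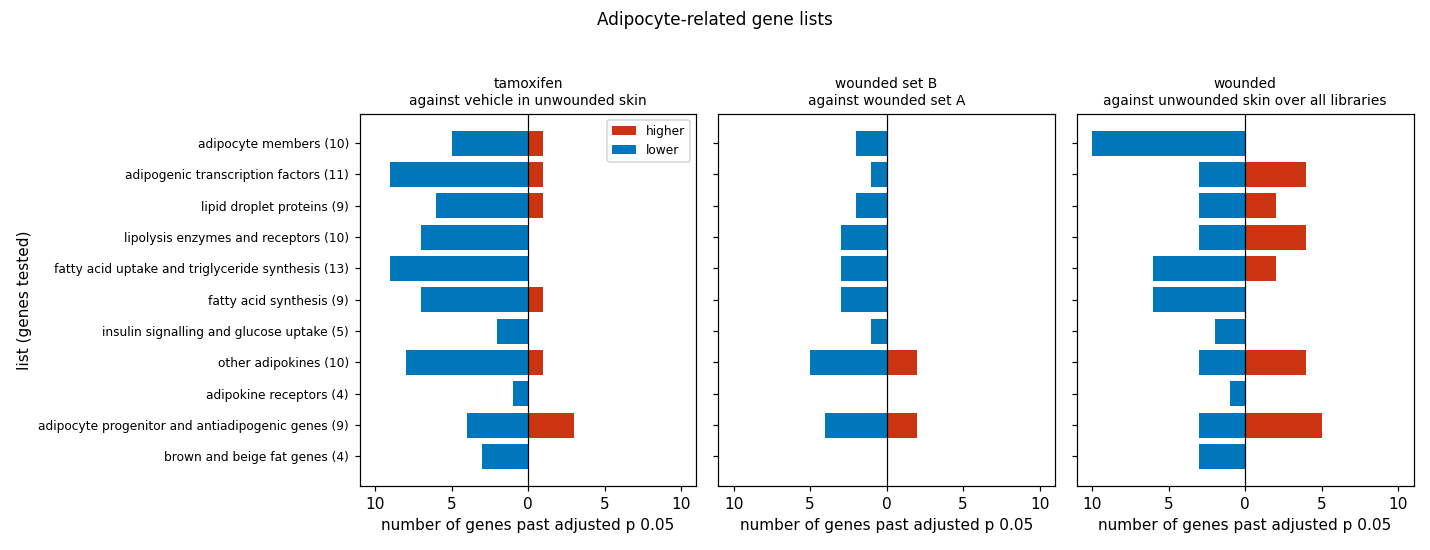
Number of genes past an adjusted p of 0.05 in each list (higher to the right, lower to the left of 0), in 3 comparisons; the number tested stands beside each list. After tamoxifen most lists of unwounded skin hold mainly lower genes. Over all libraries, which averages vehicle and tamoxifen skin, the 10 fat cell genes are all lower in wounded skin. There 4 of 11 adipogenic factors and 4 of 10 other adipokines are higher. Against vehicle skin alone (not drawn) 1 adipogenic factor was higher and 3 lower in set A, and 1 higher and 7 lower in set B.

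In wounded against unwounded skin over all libraries 6 of 10 related lists held called genes of both directions, where 26.9% of all genes tested were higher and 29.5% lower. Adipogenic factors had 4 higher and 3 lower of 11, lipid droplet proteins 2 higher and 3 lower of 9, lipolysis genes 4 higher and 3 lower of 10, and other adipokines 4 higher and 3 lower of 10. Fatty acid synthesis had 6 of 9 lower and none higher, and uptake and triglyceride synthesis 6 lower and 2 higher of 13. Against vehicle skin alone, adipogenic factors had 1 higher and 3 lower in set A, and 1 higher and 7 lower in set B. Other adipokines had 3 higher and 3 lower in set A, and 3 higher and 7 lower in set B. Lipid droplet proteins had 1 higher and 3 lower in set A, and 1 higher and 6 lower in set B. Lipolysis genes had 1 higher and 2 lower in set A, and 2 higher and 5 lower in set B. For uptake and triglyceride synthesis these were 1 and 6 in set A, and 1 and 8 in set B. Of all genes 39.8% and 59.2% were called in these comparisons. Over all libraries Rarres2 was higher by 2.04 ± 0.10 (limma adjusted p = 3.86e-09) and Plin2 by 0.63 ± 0.07 (adjusted p = 7.66e-06). Slc2a4 was lower by -1.37 ± 0.18 (limma adjusted p = 2.46e-05). Against vehicle skin alone Plin2 did not pass in set A (0.14 ± 0.10, limma adjusted p = 0.291) or set B (0.23 ± 0.10, adjusted p = 0.0603). Slc2a4 was lower than vehicle skin in both sets (-1.61 ± 0.24 and -2.08 ± 0.24). In set B against set A the lower genes included Lpin1 (-1.14 ± 0.14, limma adjusted p = 7.41e-05), Acacb (-1.17 ± 0.20, adjusted p = 0.000857) and Elovl6 (-1.30 ± 0.25, adjusted p = 0.00167).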

How the data were processed

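Per the file headers, the authors mapped reads to mm10 and deposited RPKM per gene, and a second table with a ratio between groups per contrast. The authors' sample sheet gives the deposited count of alignments per library. The submitters' processing notes name the tools TopHat2 2.1.0, bcl2fastq and Partek. The sources used here do not give the gene annotation, the counting rule or the use of strand. RPKM is relative to each library's total, so abundant genes lower the values of others, and keratin and hair genes held 2.65 to 14.9% of the RPKM sum.

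From these values, log2(RPKM + 0.5) of 13922 genes with at least 1 RPKM in at least 3 of 15 libraries was tested with limma 3.58.1 (R 4.3.3, variance trend, two-sided) in one model of 4 groups, with 11 residual and 2.57 prior degrees of freedom, after tests on simulated data. Adjusted p-values are Benjamini-Hochberg over all genes of a comparison, and the threshold was 0.05. No count model was fitted, since RPKM are not counts. Depth was 39277860 to 75102345 alignments, so that 1 RPKM of a gene of 1 kb is at least 39.3 reads.

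The members and gene lists were chosen with earlier results of these data known. All 10 members are named, with the 3 genes of smallest p in unwounded skin from each related list and the 10 genes most correlated with Adipoq (1 gene chosen by this rule is not reported here); Cebpa, Cebpb, Hilpda and Angptl4 were named after their values were seen. Replicate numbers were checked by correlating deviations from group means across genes. In sets A and B all 4 same-numbered pairs exceeded 0.1 (0.123 to 0.43), which was not so for any other pair of groups. On the values alone the numbers were taken as a possible pairing of these sets. Libraries of unlike number were not correlated, and replicate 3 of vehicle skin and set A reached 0.425, so a pairing is not established. Alternatives were other offsets, filters, scalings, library weights, fits of only the groups compared, the replicate block and leaving out each library. Gene positions are from GENCODE M21 (GRCm38), and upstream sequences from RefSeq (GRCm38.p6). Python 3.11.15 with pandas 2.3.3 and matplotlib 3.10.9 was used for tables and plots.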

Additional observations from a re-analysis of the deposited data

Results flagged for a closer look

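In 30 groups of 4 values, 2 held a library far from the rest of its group by Dixon's criterion, both in replicate 4 of wounded set A, the shallowest library. That library had 26.8 RPKM of Adipoq, where the other 3 had 19.3 to 20.6, and 243 RPKM of Cfd, where the others had 99.6 to 115. Chance alone marks about 1 in 20 groups.

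The difference between wounded and unwounded skin differed between treatments for some genes by limma's interaction term. With the treatment names of the gene tables the term was -0.58 for Fabp4 and 0.60 for Pparg. With those of the sample records it was 1.05 for Adipoq, 1.11 for Lep, 2.20 for Plin4, -0.73 for Fabp4 and 1.98 for Pparg.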

How the results depend on the processing

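No difference of the 10 genes changed sign among calls under any setting tried. The number of the 10 genes called in unwounded skin after tamoxifen, 6 in all, was 10 with library weights and 3 (without tamoxifen replicate 4) to 10 (without set A replicate 4) as each library was left out. In set B against unwounded tamoxifen skin, 7 became 4 to 7, the lowest without tamoxifen replicate 2. For the interaction with the gene tables' names, 2 became 1 with no filter on low values, 7 with library weights, and 1 to 5 as each library was left out, the highest without set A replicate 4. As each library was left out, set A against unwounded tamoxifen skin, 6, ranged from 4 to 8, set A against vehicle skin, 9, from 8 to 9, wounded against unwounded skin over all libraries, 10, from 9 to 10, and the interaction with the records' names, 5, from 4 to 6. Under the same omissions set B against set A stayed at 2 and set B against vehicle skin at 9. With library weights set B against set A gave 3 and the interaction with the records' names 7. With only the groups compared in the fit, set A against vehicle skin gave 7 and set A against tamoxifen skin 4. In unwounded skin after tamoxifen that setting added calls of Cidec (limma adjusted p = 0.0248), Lipe (0.0396) and Cfd (0.0147) and removed that of Retn (0.0601). The cause of these changes was not tested.

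The replicate block entered the replicate numbers of all 4 groups in the fit, although they were taken as a possible pairing of only sets A and B. With that block, set B against set A kept 2 calls, Plin4 (-0.99, limma adjusted p = 0.00321) and Pparg (-0.69, adjusted p = 0.00389). With the block in a fit of only the wounded sets, both stayed called at larger values. These were 0.029 for Plin4 and 0.014 for Pparg (limma adjusted p). The block over all 4 groups took away the calls of Retn, Cidec, Plin1 and Plin4 in the comparisons where its value is given above. It changed no other call of the 10 genes. Groups of 3 or 4 libraries limit what can be called. RPKM carry no counting error of their own, Lep near 1 RPKM is the least well measured of the 10, and other scalings shifted the median of all genes by -0.06 to 0.06.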
